A study of Mus musculus with 6 samples.

Results

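The Notch pathway genes described here are 36 genes that encode the receptors, ligands, processing enzymes and regulators of Notch signalling, and Hes, Hey and Nrarp proteins, of 18193 genes that the array measures with a probe set of their own. They were chosen by name, and each gene is represented by the brightest probe set that the platform annotation assigns to that gene alone. By role, the list holds 4 receptors, 7 ligands or ligand-like proteins, 4 enzymes of receptor glycosylation, 6 proteins of receptor cleavage, 5 regulators of ligand or receptor trafficking, 3 proteins of the nuclear complex and 7 targets or relatives of targets. Maml3 had no probe set of its own, which left 35 genes. Dlk1 and Hey2 lay below the signal filter used here, a mean log2 signal over 7 in at least 1 genotype, so 33 genes entered the comparison. None of the 33 passed the filter in 1 genotype alone.

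Retinas of single mouse embryos were profiled on Affymetrix mouse genome arrays, with 1 array per embryo, for 3 wild-type (WT) embryos and 3 embryos lacking the transcription factor gene Onecut1 (OC1-KO). The groups were littermates of a germline Onecut1 mutant line made from R1 embryonic stem cells in a "Swiss" strain, later bred to C57Bl/6, and their strain background is given as mixed. The sample labels give the age as E14 and name no treatment, and the title of the series gives E14.5. Embryos of each genotype are numbered 1 to 3, and p-values measure the spread between these embryos.

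Notch is a transmembrane receptor that is cut when a ligand on a neighbouring cell binds it, and its freed intracellular part joins Rbpj and a Mastermind-like protein in the nucleus to switch on Hes and Hey genes. In the embryonic retina the pathway is known for holding progenitor cells in the cycling, undifferentiated state, while newly born neurons display Delta-like ligands to their neighbours. Onecut1 is known for its part in the formation of horizontal cells, the interneurons that connect photoreceptor terminals.

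The promoters of Hes5 and Lfng are printed because both hold a pair of matches to the core motif of Rbpj, and because Hes5 is the gene of the list whose signal moved most between embryos. Each sequence is the 250 bases before the transcription start in RefSeq, on mouse assembly GRCm38.p6 and on the plus strand, at chr4:154960673-154960922 for Hes5 and chr5:140607091-140607340 for Lfng. Capitals mark TGGGAA or, where the match lies on the other strand, its reverse complement TTCCCA.
Hes5: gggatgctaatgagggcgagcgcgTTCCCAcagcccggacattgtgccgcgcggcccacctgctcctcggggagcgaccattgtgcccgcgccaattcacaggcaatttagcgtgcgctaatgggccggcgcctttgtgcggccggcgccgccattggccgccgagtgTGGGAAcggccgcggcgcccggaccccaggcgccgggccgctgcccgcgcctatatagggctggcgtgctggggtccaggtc
Lfng: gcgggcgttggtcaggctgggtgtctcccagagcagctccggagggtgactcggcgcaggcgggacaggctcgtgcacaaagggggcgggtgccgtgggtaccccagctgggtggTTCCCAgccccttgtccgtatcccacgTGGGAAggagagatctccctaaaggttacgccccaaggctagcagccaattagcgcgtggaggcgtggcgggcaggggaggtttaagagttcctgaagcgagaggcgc
The Hes5 matches start 226 and 82 bases before the transcription start, and the Lfng matches start 135 and 108 bases before it. Over all RefSeq promoter windows of 300 bases, which run from 250 bases before the start to 50 after it, 25.6% of 32851 held the motif on either strand. Of 37 windows of 30 Notch pathway genes, 9 held it, and the genes were Aph1a, Hes5, Hey2, Lfng, Maml3, Psen2, Psenen and Rbpj. The remaining members, Hes1 among them, had no window and were not searched. The longer form GTGGGAA, which contains the core, was in 6.38% of all windows and in 5 of the 37, those of Aph1a, Hes5, Hey2, Lfng and Psen2. These matches are descriptions of letters and do not show binding.

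Across the pathway, OC1-KO and WT retinas gave nearly equal signals. Of the 33 genes, 16 had a higher mean in OC1-KO and 17 a lower one, where 47.7% and 52.3% of all 20888 probe sets kept did. The median log2 difference, OC1-KO minus WT, was -0.00094 over the 33 genes and -0.0074 over all probe sets kept. Directions here follow the sample labels. The study's published lists of genes head these arrays in both ways, with the labels in the list of higher genes and opposite to them in the list of lower genes. With the labels exchanged, every signed difference would turn. The differences ran from -0.46 for Ncstn to 0.17 for Rfng, and 31 of the 33 were under 0.2 in size, as were 79.1% of all probe sets. Here and below, each gene is read by its brightest probe set, while the background holds every probe set kept, including dim ones. In bulk retina, fewer cells of a type and less RNA per cell cannot be told apart.

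**Figure D1:**
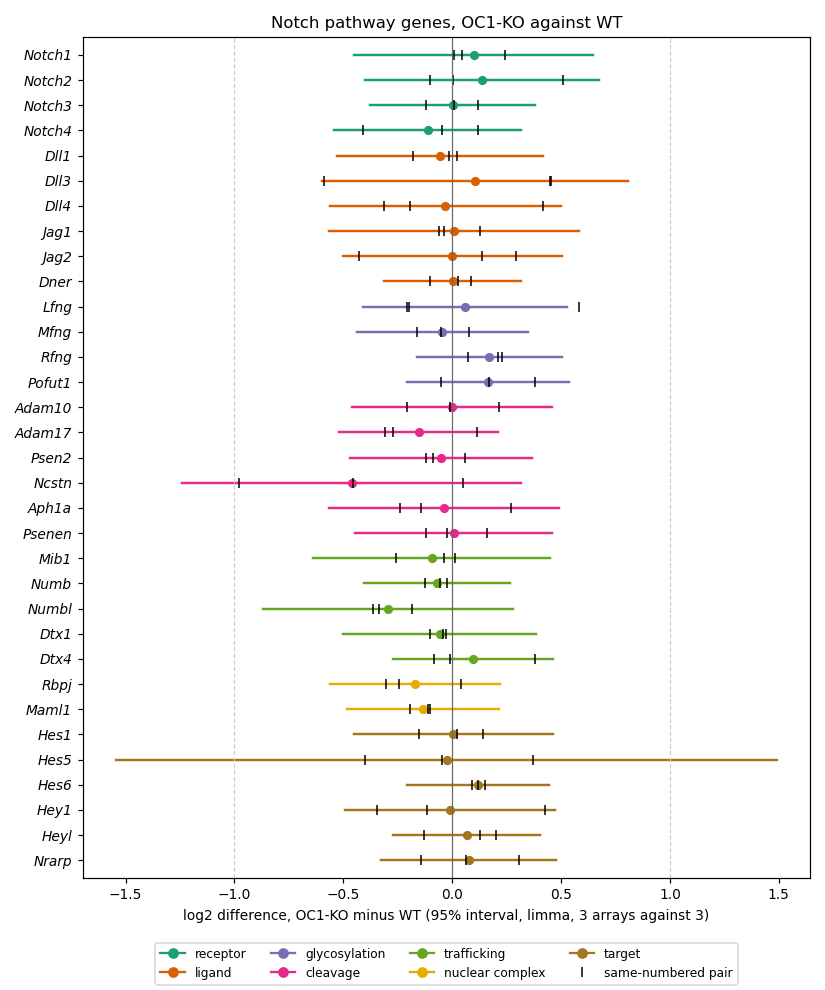
Log2 difference, OC1-KO minus WT, for the 33 Notch pathway genes above the filter, coloured by role; points are means of 3 against 3 arrays, bars the 95% interval of the limma fit, ticks the differences of same-numbered embryos and dashed lines a 2-fold difference. Every interval, from the fit without embryo number as a block, includes 0, and those of Ncstn and Hes5 extend past 2-fold.

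No gene of the pathway passed the test of genotype. At an unadjusted limma p under 0.05 there were 0 of 33, against a background of 1.01% of all probe sets, and after Benjamini-Hochberg adjustment no probe set of the whole array was called (0%). The adjusted limma p of each of the 33 genes was 1.00. The exact permutation p given for single genes is two-sided, and 0.1 is the smallest that 3 against 3 embryos allow. The methods' t-test at p under 0.05 also called 0 of the 33, in the form with equal variances (background 1.51%) and in the form with unequal variances (0.986%). On the brightest probe sets the WT and OC1-KO values of all 33 genes overlapped, where 3.56% of all probe sets did not. With the embryo number as a block in limma, 1 gene, Numbl, had an unadjusted p under 0.05 (0.0427), against a background of 4.37%, and its adjusted p was 0.999.

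The intervals show what sizes of difference the 6 arrays leave possible. For 31 of the 33 genes the 95% interval of the difference lay within a 2-fold change either way, against 84.8% of all probe sets, and the exceptions were Ncstn and Hes5. For 26 of the 33 it lay within 1.5-fold, against 46.9%. The 2 shares are not of probe sets alike in brightness, so they do not show that the pathway is more stable than other genes. With the embryo number as a block the counts were 33 and 31 of 33, against 95.8% and 74.7% of all probe sets. Ncstn and Hes5 then lay within 2-fold as well. These counts are of the brightest probe sets, and on the other Hes5 set above the filter the blocked interval was 0.856-fold to 2.01-fold. The sign of the difference turned for 21 of the 33 when 1 of the arrays was left out, as it did for 67.7% of all probe sets.

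The receptors are the proteins that receive the signal. Notch1, the main receptor of retinal progenitors, reached a log2 signal of 12.58, 12.07 and 11.96 in the WT embryos, in the order of their numbers, and of 12.58, 12.31 and 12.01 in the OC1-KO embryos. In both genotypes the embryo numbered 1 was the highest and the embryo numbered 3 the lowest, and the genotypes overlapped almost entirely. The difference was 0.10 (SE 0.23, exact permutation p = 0.7), or between 0.733-fold and 1.56-fold. Its other probe set above the filter gave 10.38, 9.62 and 10.17 in WT and 10.33, 9.69 and 10.02 in OC1-KO, a difference of -0.05. On both probe sets the embryos numbered 1 were the highest, but only the brighter one placed those numbered 3 below the others.

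Of the other receptors, Notch2 had a mean log2 signal of 9.70 ± 0.28 across WT and of 9.84 ± 0.32 across OC1-KO embryos (here and after each ± the SD, n = 3), and Notch4, known from blood vessels, 9.38 ± 0.24 and 9.26 ± 0.16. Notch3, a receptor known from the mural cells of vessels, had means of 9.85 ± 0.16 and 9.85 ± 0.14, a difference of 0.0016 (SE 0.16). The probes of that set can match other transcripts too, as its suffix marks. Its second probe set differed in sign, with 8.27, 7.92 and 7.72 in WT and 8.10, 7.44 and 6.80 in OC1-KO. That difference was -0.52 (SE 0.34, exact permutation p = 0.3) and the groups overlapped. Same-numbered embryos differed by -0.17, -0.48 and -0.92 on it. With the embryo number as a block its unadjusted limma p was 0.0258 (adjusted 0.999), against a background of 4.37%.

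The ligands sit on the sending cell. Dll1, a Delta-like ligand of newly born neurons, gave 10.87, 10.80 and 10.51 in WT and 10.86, 10.82 and 10.34 in OC1-KO. The 2 embryos numbered 3 were the lowest, whichever their genotype, and the difference between genotypes was -0.06 (SE 0.20, exact permutation p = 0.8). Dll4, a ligand of early retinal neurons and of vessels, gave 8.42, 8.24 and 8.37 in WT and 8.11, 8.05 and 8.78 in OC1-KO. The OC1-KO embryos lay on both sides of the WT embryos, and the difference was -0.03 (SE 0.22, exact permutation p = 1). Its second probe set had the same sign, -0.22 (SE 0.26).

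Dll3, a divergent family member that is known to act inside the cell, gave 10.44, 10.60 and 10.53 in WT, a narrow range. OC1-KO embryos 1 to 3 gave 10.90, 11.05 and 9.93, with the first pair above every WT embryo and the last below every one. The differences within same-numbered embryos were thus 0.45, 0.45 and -0.59, and the mean difference was 0.10 (SE 0.30, exact permutation p = 0.9). One array decided this value. Without OC1-KO 3 the difference was 0.45 with an unadjusted limma p of 0.0313, and with the embryos numbered 1 and 2 alone it was 0.45 with an unadjusted limma p of 0.0488, while both adjusted p-values were 1.00. Without OC1-KO 1 the difference was -0.03, and without OC1-KO 2 it was -0.11.

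Jag1, a Serrate-type ligand of the ciliary margin, gave 8.03, 8.14 and 8.65 in WT and 7.97, 8.27 and 8.62 in OC1-KO. The values followed the embryo number and not the genotype, and the difference was 0.0083 (SE 0.24, exact permutation p = 1). Dner, a neuronal transmembrane protein proposed as a Notch ligand, gave 11.64, 11.62 and 11.71 in WT and 11.67, 11.71 and 11.61 in OC1-KO. It had the narrowest range of the 33 genes, 0.10 from the lowest to the highest of the 6 arrays, where the median range was 0.52 over the 33 and 0.64 over all probe sets. Its second probe set, whose probes may cross-hybridise, gave a difference of -0.14 (SE 0.25). Jag2, a second Serrate-type ligand, had means of 7.60 ± 0.37 (WT) and 7.60 ± 0.10 (OC1-KO). Dlk1, a Delta-like protein without the usual receptor-binding region, was below the filter, at 6.37 ± 1.05 and 6.66 ± 0.15.

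**Figure D2:**
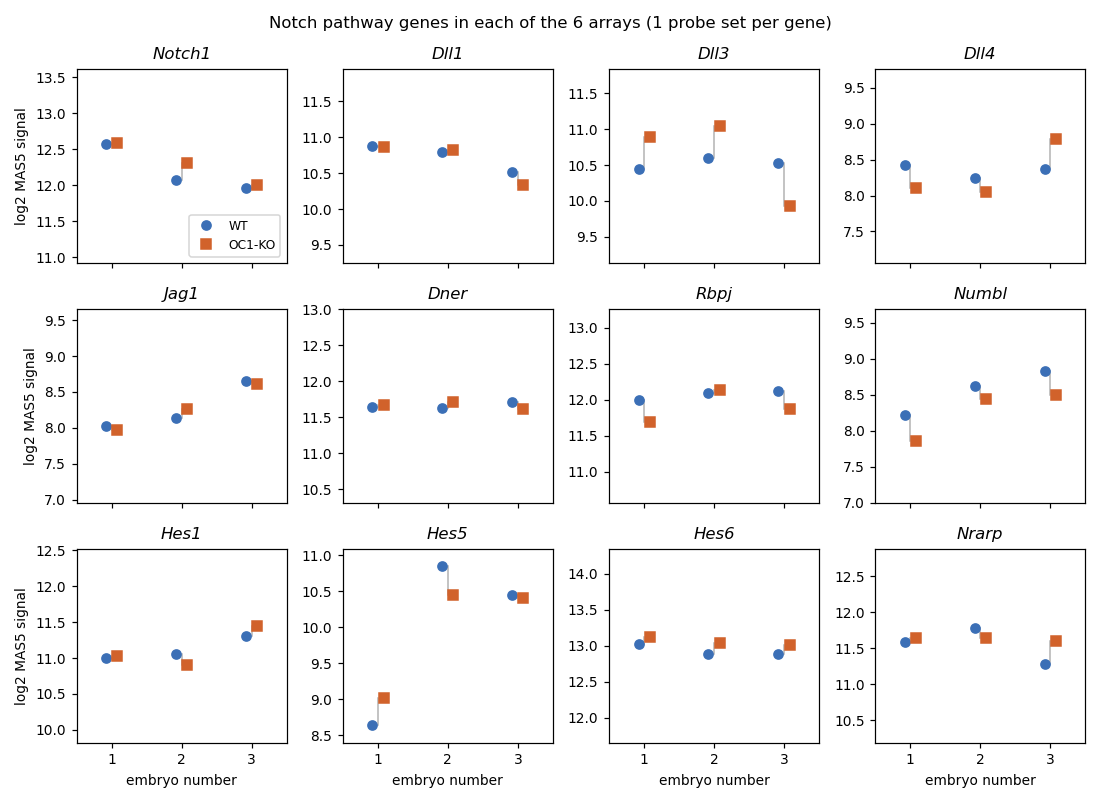
Log2 MAS5 signal of 12 Notch pathway genes in each of the 6 arrays, by embryo number on the horizontal axis; circles are WT, squares OC1-KO, and lines join embryos of the same number. The vertical axes have their own positions but the same span. Set against the range of each gene, same-numbered embryos lie close together for Notch1, Dll1, Jag1 and Hes5. Dll3 turns from above to below WT in embryo 3.

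Glycosylation of the receptor sets which ligands it answers to. The Fringe enzymes Lfng and Mfng differed by 0.06 (SE 0.20) and -0.04 (SE 0.17), and Pofut1, which adds the first sugar, by 0.17 (SE 0.16, exact permutation p = 0.3). For Rfng, the third Fringe enzyme, WT embryos gave 9.91, 9.75 and 9.68 and OC1-KO embryos 9.98, 9.97 and 9.89. OC1-KO was the higher in each of the 3 same-numbered comparisons, the groups overlapped by 1 embryo of each, and the difference of 0.17 (SE 0.14) had an exact permutation p of 0.2. The second Rfng probe set went the other way, -0.33 (SE 0.30, exact permutation p = 0.6).

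Cleavage frees the intracellular part of Notch: Adam10 and Adam17 cut outside the membrane, and gamma-secretase, of which Psen2, Ncstn, Aph1a and Psenen are subunits, cuts within it. The median difference of these 6 genes was -0.04, with 1 above 0 and 5 below. Adam10 had means of 12.43 ± 0.30 (WT) and 12.43 ± 0.12 (OC1-KO), and its second probe set differed by 0.12 (SE 0.20). Adam10 lies on chromosome 9 at 70678944 to 70780229 (GRCm38.p6), 4.08 Mb from Onecut1, so it is the member closest to the mutated gene, and the part of linked strain variants in its signal was not tested. Adam17 differed by -0.15 (SE 0.15) on its brightest probe set, by 0.18 on the second and by -0.05 on the third.

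Ncstn, the subunit that recruits the substrate, had the largest difference of the list. WT embryos gave 8.32, 8.09 and 8.01 and OC1-KO embryos 8.37, 7.63 and 7.03. The OC1-KO embryos spread over 1.34, from above every WT embryo to below every one. The difference of -0.46 (SE 0.33) had an exact permutation p of 0.4 and an unadjusted limma p of 0.204. With the embryo number as a block the SE was 0.21 and the unadjusted limma p 0.0772. The difference rested on single arrays. It was -0.81 with an unadjusted p of 0.0147 without OC1-KO 1, and -0.14 without OC1-KO 3. The other subunits differed by less, with -0.05 (SE 0.18) for Psen2, -0.04 (SE 0.22) for Aph1a and 0.0062 (SE 0.19) for Psenen.

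Among the regulators of trafficking, Mib1, the ubiquitin ligase that lets a ligand be taken up, differed by -0.09 (SE 0.23). Its 3 probe sets above the filter were all lower in OC1-KO, with -0.09, -0.24 and -0.53 from the brightest to the dimmest, and none had an unadjusted limma p under 0.05. Numb, an inhibitor of Notch that is passed on unequally at cell division, differed by -0.07 (SE 0.14). The ubiquitin ligase family genes Dtx1 and Dtx4 differed by -0.06 (SE 0.19) and 0.10 (SE 0.16), and the second Dtx4 probe set by -0.20 (SE 0.15). On that second set the groups did not overlap, with 9.02, 9.30 and 9.08 in WT and 8.94, 8.95 and 8.90 in OC1-KO. Its exact permutation p was 0.1 and its unadjusted limma p 0.202, and 3.56% of all probe sets separated the genotypes so.

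Numbl, the Numb-like inhibitor, gave 8.23, 8.62 and 8.84 in the WT embryos and 7.86, 8.44 and 8.50 in the OC1-KO embryos. Within each number the OC1-KO embryo was the lower, by differences of -0.36, -0.18 and -0.34, although the groups overlapped because the embryos numbered 1 were low in both genotypes. The difference of -0.29 had an SE of 0.24, an unadjusted limma p of 0.264 without the block and an exact permutation p of 0.4. Across the list, OC1-KO was lower in 3 of 3 such comparisons for 4 genes, Numb, Numbl, Dtx1 and Maml1, against 13.1% of all probe sets. It was higher in 3 of 3 for 3 genes, Notch1, Rfng and Hes6, against 10.3%. Both shares of the list, 12.1% and 9.09%, were near the background.

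In the nuclear complex, Rbpj, the DNA-binding protein that carries Notch to its targets, gave 12.00, 12.10 and 12.12 in WT and 11.70, 12.14 and 11.88 in OC1-KO. The lowest values were those of OC1-KO 1 and OC1-KO 3 while OC1-KO 2 was the highest of all 6, and the difference was -0.17 (SE 0.16, exact permutation p = 0.4). The other probe sets of Rbpj gave 0.01 and -0.25. Maml1, the coactivator of the complex, differed by -0.13 (SE 0.15), and its second probe set by -0.18 (SE 0.15).

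The last group holds targets that Notch switches on and their relative Hes6. Hes1, a repressor that keeps progenitors undifferentiated, gave 11.00, 11.05 and 11.30 in WT and 11.02, 10.90 and 11.44 in OC1-KO. Both embryos numbered 3 were above the other 4, and the difference between genotypes was 0.0045 (SE 0.19, exact permutation p = 1). Nrarp, a target that feeds back on Notch, gave 11.59, 11.78 and 11.29 in WT and 11.65, 11.64 and 11.60 in OC1-KO, with the OC1-KO embryos inside the WT range. Its difference was 0.08 (SE 0.17), and 0.19 (SE 0.15) on its second probe set.

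Hes6, a family member known for promoting neuronal differentiation and not counted among the genes that Notch switches on, gave 13.03, 12.88 and 12.89 in WT and 13.12, 13.03 and 13.00 in OC1-KO. Same-numbered embryos differed by 0.09, 0.15 and 0.12, the most even set of the list. The difference of 0.12 (SE 0.14, exact permutation p = 0.2) was matched in sign by the second probe set, 0.10, and kept its sign under each alternative tried. The probes of the brightest Hes6 set may cross-hybridise, as its suffix marks. Hey1 and Heyl, repressors of the related Hey family, differed by -0.01 (SE 0.20) and 0.07 (SE 0.14), and Hey2 was below the filter with means of 4.97 ± 0.20 (WT) and 5.21 ± 0.84 (OC1-KO).

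Hes5, the target most tightly bound to Notch activity in the nervous system, had the widest range of the list, 2.21 from the lowest array to the highest. The WT embryos gave 8.64, 10.85 and 10.45 and the OC1-KO embryos 9.01, 10.45 and 10.41. The embryos numbered 1 were the lowest in both genotypes, and the difference between genotypes was -0.03 (SE 0.64, exact permutation p = 0.8). Its 95% interval was 0.343-fold to 2.81-fold without the block and 0.725-fold to 1.33-fold with it. The suffix of this probe set marks probes that may cross-hybridise. The other Hes5 probe set gave 9.19, 9.96 and 9.51 in WT and 10.06, 9.66 and 10.12 in OC1-KO, so its lowest arrays were WT 1 and WT 3. Its difference was 0.39 (SE 0.24, exact permutation p = 0.2), and the groups overlapped.

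Several genes were read by over 1 probe set, and these often disagreed in sign. Of 15 such genes, 6 had the same sign on all their probe sets above the filter, namely Dll4, Aph1a, Mib1, Maml1, Hes6 and Nrarp.

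**Figure D3:**
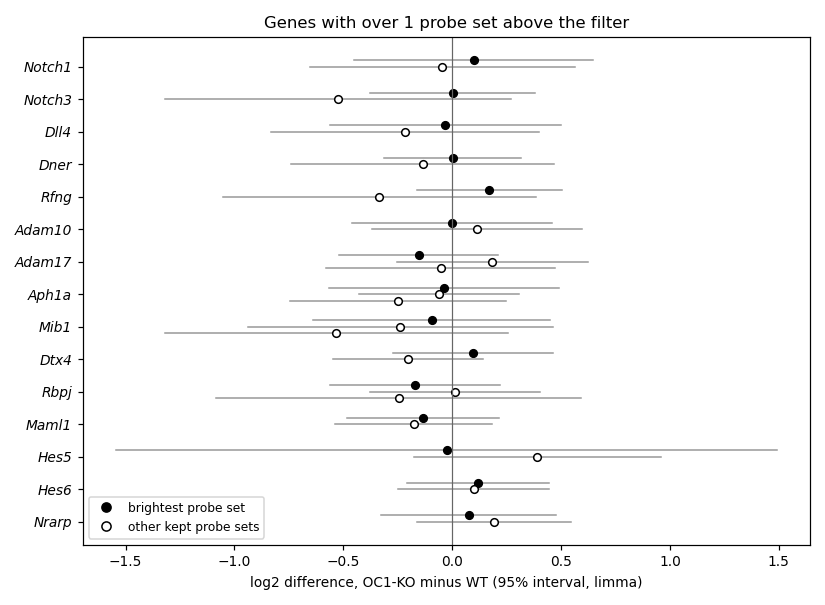
Log2 difference, OC1-KO minus WT, on each probe set above the filter for the 15 Notch pathway genes with over 1; filled points are the brightest set, open points the others, and bars the 95% interval of the limma fit. All probe sets share a sign for 6 of the 15 genes, and each interval, from the fit without the block, includes 0.

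The embryo number accounted for more of the spread than the genotype. The sum of squares of the 6 log2 signals of a gene was split into genotype (1 degree of freedom), embryo number (2) and remainder (2). The median share was 2.59% for genotype, 61.1% for embryo number and 20.6% for the remainder over the 33 genes, and 5.02%, 70.1% and 17.5% over all probe sets. The share of embryo number was the larger in 28 of the 33 genes, or 84.8%, against 89.6% of all probe sets. The largest shares of genotype were 57.8% for Rfng and 51.5% for Hes6, both with a narrow range of 0.30 and 0.23.

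**Figure D4:**
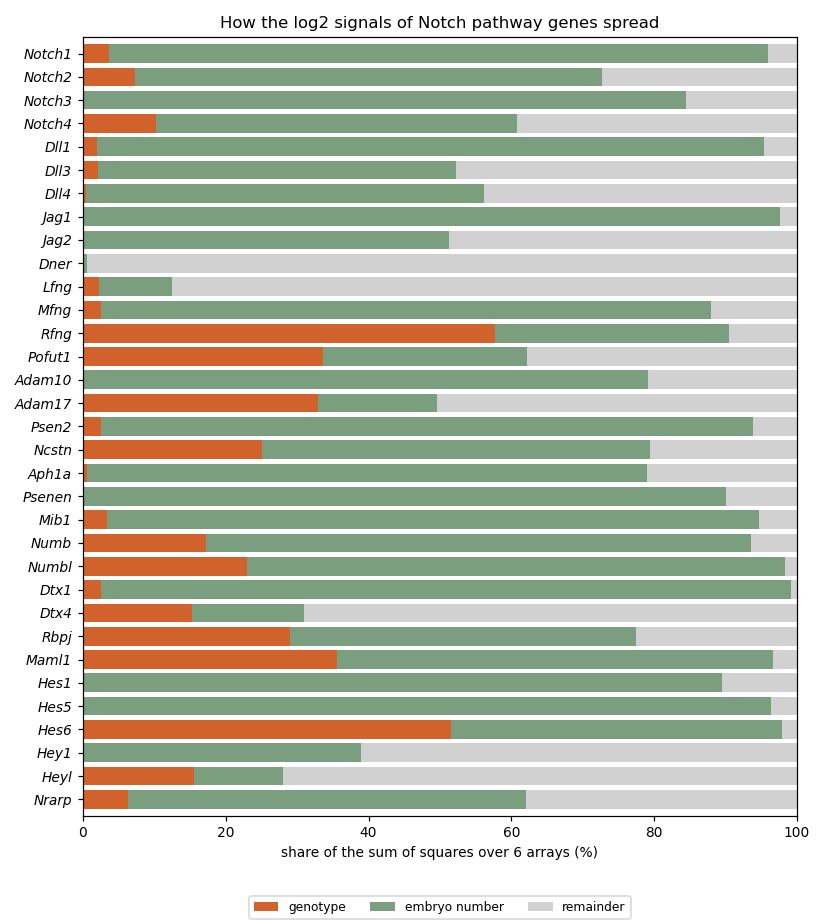
Share of the sum of squares of the 6 log2 signals that falls to genotype, to embryo number and to the remainder, in percent, for each of the 33 Notch pathway genes above the filter. Embryo number takes the larger share in 28 genes, and genotype takes over 50% in Rfng and Hes6 alone.

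In the limma fit with genotype and embryo number, the moderated F test of embryo number had an unadjusted p under 0.05 for 6 of the 33 genes, where 31.9% of all probe sets did. They were Notch1 (0.0189), Dll1 (0.0429), Jag1 (0.0124), Mib1 (0.0217), Numbl (0.0118) and Hes5 (0.000519). After Benjamini-Hochberg adjustment Hes5 alone passed, with an adjusted p of 0.0399, against 5.32% of all probe sets. This call rested on the brighter probe set and on single arrays. The other Hes5 probe set had an unadjusted p of 0.777 for embryo number, and the adjusted p of the brighter one ran from 0.0020 to 0.349 over the alternatives tried. The labels do not say what the numbers stand for.

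Both embryos numbered 3 differed from all others on the whole array, and in part of the pathway. Notch3, Jag1, Mfng, Aph1a and Hes1 were higher in both of them than in any other embryo, and Notch1 and Dll1 were lower than in any other. These 7 genes are 21.2% of the 33, while 38.4% of all probe sets separated the embryos numbered 3 in this way, 3105 above and 4913 below the others. These are values of the brightest probe sets, and the other probe sets above the filter of Notch1, Notch3 and Aph1a did not separate the embryos so. The reverse was seen too. A further set above the filter placed both embryos numbered 3 below the others for Rbpj and Maml1, and above them for Adam17 and Rfng, where the brightest set did not. On the second Notch3 set the embryo numbered 3 was instead the lowest of its genotype in both, at 7.72 in WT and 6.80 in OC1-KO.

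Several marker lists of cells outside the neural retina, though not the endothelial one, had higher sums in the same 2 embryos. All 8 lens genes, of which 3 passed the filter, were higher in them, and the log2 of the summed lens signal was 13.45 to 14.47 in the embryos numbered 3 and 7.05 to 8.33 in the others. For the 5 measured red blood cell genes, of which 1 passed the filter, the sums were 14.01 to 14.54 and 5.46 to 9.48, with 4 genes above. They were for periocular mesenchyme 10.98 to 11.17 and 8.53 to 9.27 (4 of 6 above), and for pigment epithelium 9.63 to 10.94 and 8.21 to 9.17 (4 of 6 above). Within each number the pigment epithelium sum was also higher in OC1-KO, with 8.95, 9.17 and 10.94 against 8.52, 8.21 and 9.63 in WT. The mural cell genes summed to 9.69 in both embryos numbered 3 and to 8.32 to 8.92 in the others (3 of 6 above). Only Acta2 and Pdgfrb of that list passed the filter. Acta2 was 8.91 and 8.87 in the embryos numbered 3 against 6.24 to 7.19, while Pdgfrb was 7.52 and 7.31 against 7.09 to 7.65. The endothelial list summed to 10.63 to 10.67 against 10.73 to 11.30, with 1 of its 8 genes above the other embryos. Kdr and Cldn5 alone passed the filter, with Pecam1, Tie1 and Tek below it. Kdr, which carries the sum, was 10.13 and 10.24 in the embryos numbered 3 against 10.33 to 11.10, while Cldn5 was the higher in them, 8.22 and 8.13 against 7.40 to 7.89. The part of these cells in the signals of Notch pathway genes was not tested.

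**Figure D5:**
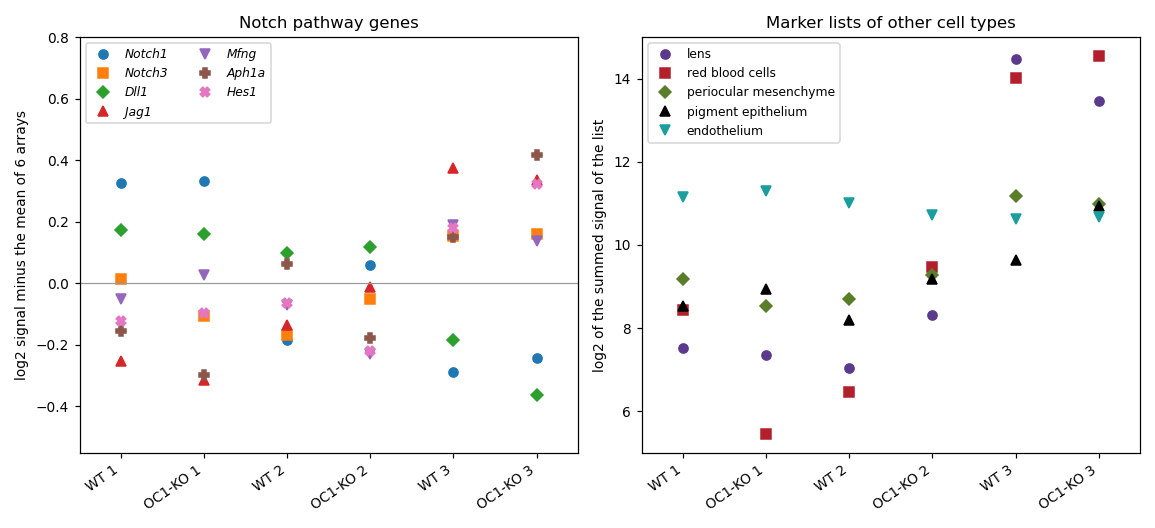
Left, log2 signal minus the mean of the 6 arrays for the 7 Notch pathway genes that separate the embryos numbered 3; right, log2 of the summed signal of 5 marker lists in the same arrays. The 5 genes and the lens, red blood cell, periocular mesenchyme and pigment epithelium lists that are high in WT 3 and OC1-KO 3 lie above the other 4 arrays, Notch1 and Dll1 below them.

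The retinal identity of the samples held on every array. The 9 measured markers of retinal progenitors, the cells in which Notch is active, were above the filter and summed to a log2 of 16.30 to 16.77 in WT and 16.42 to 16.83 in OC1-KO. The 7 measured markers of neurogenic progenitors summed to 15.27 to 15.66 in WT and 15.57 to 15.63 in OC1-KO. Neither range separated the genotypes. Onecut1 itself ranged from 8.76 to 9.25 in WT and from 8.31 to 9.67 in OC1-KO on its brighter probe set. Its probes could not be placed against the deletion from the sources used here, so this signal is no check of the genotype.

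The wider pathway gave a similar picture. Of 34 further genes of the pathway with a probe set of their own, such as the coactivators Crebbp and Ep300, 27 were above the filter. Of the 27, 15 had a higher mean in OC1-KO and 12 a lower one, with a median difference of 0.02 and a range of -0.25 to 0.23. None had an unadjusted p under 0.05 by limma, with or without the block. The groups did not overlap for 2 of the 27, where 3.56% of all probe sets did not overlap. Crebbp, a histone acetyltransferase, differed by 0.06 (SE 0.13, unadjusted limma p of 0.660, and of 0.0087 by the methods' t-test with equal variances, which put 1.51% of all probe sets under 0.05), with 11.63, 11.61 and 11.65 in WT and 11.68, 11.69 and 11.69 in OC1-KO. Tle3, a Groucho-type corepressor that Hes proteins recruit, differed by 0.21 (SE 0.14, unadjusted limma p of 0.197), with 10.44, 10.54 and 10.65 in WT and 10.73, 10.66 and 10.86 in OC1-KO, and lies on chromosome 9, 13.4 Mb from Onecut1.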

How the data were processed

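RNA of retinas of 3 WT and 3 OC1-KO embryos was amplified, labelled with biotin and hybridised to 1 array each. The values deposited by the authors are MAS5 intensities on a linear scale, background-corrected and scaled so that each array has a 2% trimmed mean of 500; no version of MAS5 is named. Log2 was taken here without further scaling. The array holds 45101 probe sets, 64 of them controls that were removed, and the methods' filter, a mean log2 value above 7 in either genotype, kept 20888. Gene names came from the platform annotation, where 34958 probe sets had 1 symbol, 932 several and 9211 none. Precision rests on signal over background and on 6 arrays. The median signal was 85.0 (OC1-KO 3) to 104 (OC1-KO 1), and each array had 43.4% to 46.7% of its probe sets above the filter value.

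The genotypes were compared in R 4.3.3 with limma 3.58.1 (lmFit, then eBayes with no trend), with Benjamini-Hochberg adjustment over all probe sets kept, and embryo number by a moderated F test in the fit with genotype. The methods' t-test and an exact two-sided permutation test, whose smallest p is 0.1 for 3 against 3, were also run. The fits were tested on simulated data. Probe sets left unchanged there held no difference by embryo number, so the unpaired fit was not tested under the spread by embryo number seen here. Tables and plots used Python 3.11.15, pandas 2.3.3 and matplotlib 3.10.9. The alternatives were no filter, quantile normalization, log2(signal + 16), an intensity trend, the mean of all kept probe sets of a gene, the block, the embryos numbered 1 and 2 alone, and leaving out each array in turn.

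After removal of group means, arrays of the same number correlated at 0.51 to 0.67 and those of different numbers at -0.44 to -0.04. The numbers thus pair the arrays, which rests on the values, since the labels do not name litters. Unless the block is named, the SEs, intervals and p-values for genotype leave this pairing out. The members, the marker lists and the list of further pathway genes were chosen with earlier results of these data known, and 1 item of that list is not reported here. All 36 members are accounted for. All 6 values are printed for a core of the pathway (Notch1, Dll1, Dll3, Dll4, Jag1, Dner, Rbpj, Hes1, Hes5, Hes6 and Nrarp), for members under 0.05 for genotype, and for members with an adjusted p under 0.05 for embryo number. For Ncstn, Rfng, Crebbp, Tle3 and second probe sets they were added after the values were seen. A second probe set above the filter is named where its sign differs from that of the brightest, and some others are also given. Second probe sets below the filter are left out, also where their sign differs, as for Lfng. Macrophage and ganglion cell markers were measured too, and the log2 sums were 9.82 to 10.19 and 15.58 to 15.95 over the 6 arrays. The macrophage sum was 10.13 to 10.19 in the embryos numbered 3 and 9.82 to 10.09 in the others (2 of 6 genes above).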

Additional observations from a re-analysis of the deposited data

How the results depend on the processing

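The median difference between OC1-KO and WT over the Notch pathway genes, -0.00094, was -0.045 with the mean of all kept probe sets of a gene and -0.040 with the embryos numbered 1 and 2 alone, and it ran from -0.049 to 0.042 as each array was left out. The number of genes at an unadjusted p under 0.05 for genotype was 0, and it was 1 with the replicate block on embryo number (Numbl; 4.37% of all probe sets), 1 with the embryos numbered 1 and 2 alone (Dll3; 1.91%), and 0 to 1 as each array was left out (Ncstn without OC1-KO 1, 1.52%; Dll3 without OC1-KO 3, 1.81%). The block changed no other call on the brightest probe sets. No alternative gave an adjusted p under 0.05 for genotype in any of the 33 genes. Each of 23 genes changed the sign of its difference under at least 1 alternative, and 10 did not: Notch2, Pofut1, Adam17, Ncstn, Numb, Numbl, Rbpj, Maml1, Hes6 and Heyl. For embryo number, the count at an adjusted p under 0.05 was 1, and it was 0 without the filter (0% of all probe sets), 5 with the intensity trend (Notch1, Dll1, Mib1, Dtx1 and Hes5; 19.7%), 0 with the mean of all kept probe sets (0.247% of genes) and 0 to 1 as each array was left out. The adjusted p of Hes5 for embryo number was 0.0399, and it was 0.349 without the filter, 0.0929 with the mean of its probe sets, and 0.0454 to 0.167 as each array was left out, with leaving out WT 1 the one case under 0.05. The count at an unadjusted p was 6 of 33 (31.9% of all probe sets), and it was 1 of 35 without the filter (12.7%), 13 with the trend (37.3%), 11 with the mean of probe sets (30% of genes) and 3 without OC1-KO 3 (20.8%). The causes were not tested. Signal over background limits Dlk1 and Hey2, for which no comparison is drawn.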
